A study of Arabidopsis thaliana with 6 samples.

Results

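The WRKY family of Arabidopsis thaliana was examined in 7-day-old whole seedlings of a gbpl3 mutant and of the Col-0 wild type, with 3 libraries per genotype. Members were taken by gene identifier, and 59 of the 32833 genes in the count table belonged to the set. The series' title places GBPL3, a guanylate-binding-like protein, in the basket of the nuclear pore. The gbpl3 seedlings carry a mutation that the labels number gbpl3_1 to gbpl3_3 without naming an allele, and the numbers were read as replicates because the design speaks of triplicates. Both genotypes grew untreated on MS medium with 1% sucrose, and RNA came from about 50 mg of tissue. All organs were pooled in each extraction, so fewer cells of a type and less RNA per cell cannot be told apart. Separate cultures are not stated for the 3 libraries of either genotype. The p-values therefore speak of library-to-library spread, part of which may be technical.

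WRKY proteins are plant transcription factors that carry a short conserved WRKY heptad followed by a zinc finger, and they bind the W-box, a DNA element with the core TTGAC. Many are induced by pathogens, salicylic acid, wounding or nutrient stress, and W-boxes in their own promoters let them act on one another and on themselves. MAP kinases phosphorylate several of them, and small VQ proteins bind them and alter their activity. They are classed by the number of WRKY domains and the type of zinc finger. In proteins translated from the TAIR10.1 reference, all 11 members placed in group I held 2 heptads and the other 48 held 1. All 9 members of group III had a C2HC zinc finger, and the other 50 had the C2H2 type. The variant heptad WRKYGKK was present in 3 proteins, those of WRKY50 (AT5G26170), WRKY51 (AT5G64810) and WRKY59 (AT2G21900).

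Because WRKY genes can be bound by WRKY proteins, the sequences before the start of called members are shown where they hold a complete W-box. The motif was searched as TTGACC or TTGACT on either strand, with matches that shared a base counted separately, in windows from 250 bases before to 50 bases after each annotated gene start. A match was found in 22 of the 59 members, 37.3%, and in 32.4% of 27431 protein-coding genes. At least 2 matches were found in 11 members, 18.6%, and in 7.69% of protein-coding genes. The 3 sequences below are the 250 bases that precede the gene in RefSeq's TAIR10.1 assembly, read 5′ to 3′ on its own strand, with each match in capitals. WRKY33 (AT2G38470, plus strand, chr2:16107985-16108234) holds matches that end 90 and 26 bases before the start, WRKY53 (AT4G23810, minus strand, chr4:12393983-12394232) 213 and 65 bases before it, and WRKY28 (AT4G18170, plus strand, chr4:10060964-10061213) 203 bases before it.
WRKY33: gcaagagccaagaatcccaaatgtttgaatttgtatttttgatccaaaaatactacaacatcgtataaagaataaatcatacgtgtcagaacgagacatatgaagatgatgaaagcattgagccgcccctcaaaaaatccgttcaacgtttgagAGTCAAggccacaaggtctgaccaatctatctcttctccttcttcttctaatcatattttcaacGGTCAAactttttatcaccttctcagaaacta
WRKY53: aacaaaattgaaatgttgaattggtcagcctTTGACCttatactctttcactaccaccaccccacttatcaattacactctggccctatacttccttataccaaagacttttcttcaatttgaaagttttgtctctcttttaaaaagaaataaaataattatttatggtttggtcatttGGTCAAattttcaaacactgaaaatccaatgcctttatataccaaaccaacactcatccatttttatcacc
WRKY28: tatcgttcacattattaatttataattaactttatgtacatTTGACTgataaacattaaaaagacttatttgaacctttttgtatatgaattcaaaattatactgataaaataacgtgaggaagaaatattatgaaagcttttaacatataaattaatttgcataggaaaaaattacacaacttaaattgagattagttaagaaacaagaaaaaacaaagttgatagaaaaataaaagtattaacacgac
The upstream sequences of the other called members, WRKY23, WRKY31, WRKY48 and WRKY54, held no match in this window. Of the 17 tested members with a match upstream of the start, 2 were called higher in gbpl3 and 1 lower, and of the 33 without one, 3 were higher and 1 lower. The shares were 11.8% higher and 5.88% lower with a match and 9.09% and 3.03% without, against 6.06% and 4.69% of all tested genes.

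Of the 59 genes, 50 passed the filter on low counts and were tested. In gbpl3 5 of them were higher and 2 lower, at a Benjamini-Hochberg adjusted p under 0.05, taken over all 20677 genes tested with edgeR's quasi-likelihood method. The higher members were WRKY28, WRKY48, WRKY31, WRKY23 and WRKY33, and the lower ones WRKY53 and WRKY54. The shares, 10% higher and 4.0% lower, stood against 6.06% higher and 4.69% lower among all tested genes. In either direction 14% of members were called, against 10.7% of all tested genes, which puts the family near the background. Estimates were positive in 25 members and negative in 25. The median log2 fold change, gbpl3 over Col-0, was 0.02 in the members and 0.00 in all genes, and the median size without sign was 0.30 and 0.21. All gbpl3 libraries stood above all Col-0 libraries in 9 tested members, 18%, and below them in 8, 16%, against 14.5% and 13.6% of all tested genes.

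**Figure D1:**
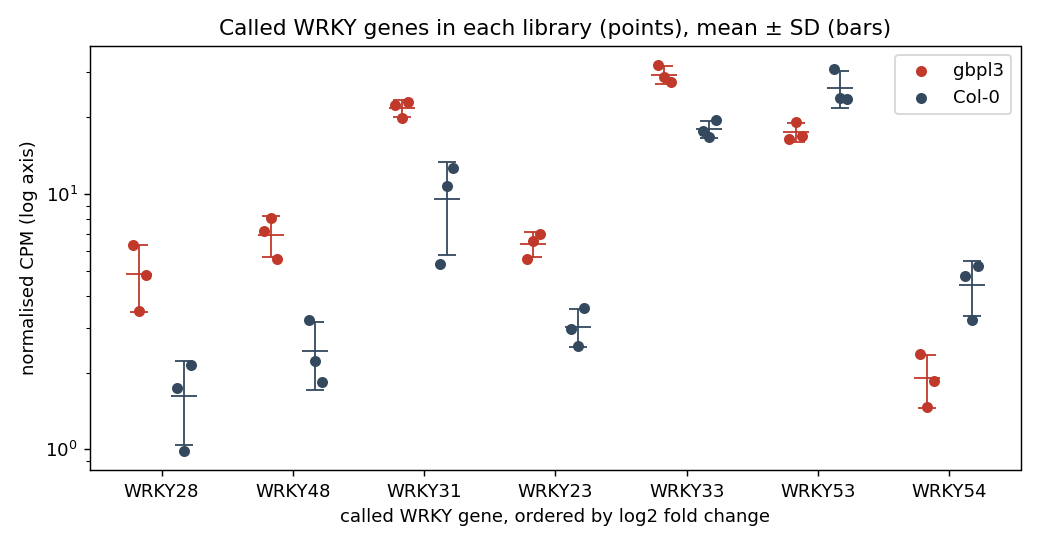
Normalised CPM (log axis) of the 7 called WRKY genes in the 3 gbpl3 and 3 Col-0 libraries, with points for libraries and bars for mean ± SD. No gbpl3 point overlaps the Col-0 points of the same gene.

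Levels are normalised CPM, that is counts as a share of the TMM-scaled library total, and errors are SD with n = 3 per genotype. The largest rise was that of WRKY28 (chr4:10061214-10062893 in TAIR10.1, plus strand), a pathogen-responsive factor that can bind the promoter of the salicylic acid synthesis gene ICS1. WRKY28 had 6.34, 3.48 and 4.84 CPM in gbpl3 replicates 1 to 3 and 1.74, 0.986 and 2.15 CPM in Col-0 replicates 1 to 3. It averaged 4.89 ± 1.43 CPM in gbpl3 and 1.63 ± 0.589 CPM in Col-0, 3.01-fold higher (log2 fold change 1.59, SE 0.38, adjusted p = 0.0104). The lowest gbpl3 library was still above the highest Col-0 library. WRKY48 (AT5G49520, chr5:20090648-20093346, plus strand), a stress-induced activator that lowers basal defence against bacteria, had 7.20, 8.04 and 5.58 CPM in gbpl3 and 3.23, 2.22 and 1.84 CPM in Col-0. It rose 2.84-fold (log2 fold change 1.51, SE 0.30, adjusted p = 0.00304), and the genotypes did not overlap. WRKY23 (AT2G47260, chr2:19404802-19407098, minus strand), an auxin-induced gene of root and embryo development, had 5.59, 6.58 and 6.98 CPM in gbpl3 and 2.96, 2.55 and 3.58 CPM in Col-0. It rose 2.11-fold (log2 fold change 1.08, SE 0.27, adjusted p = 0.0156), again without overlap. The WRKY28 call ended without gbpl3 replicate 1 (adjusted p = 0.0803) and in limma on log2(FPKM + 0.1) (adjusted p = 0.0556), and the WRKY23 call without gbpl3 replicate 3 (adjusted p = 0.0799).

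WRKY31 (AT4G22070, chr4:11691172-11694590, minus strand) and WRKY33 (chr2:16108235-16110766, plus strand) were the more abundant risers. WRKY31 belongs to the same branch as WRKY6 and WRKY42, which are known for the control of phosphate transport. It had 22.2, 19.9 and 22.97 CPM in gbpl3 and 5.32, 10.8 and 12.7 CPM in Col-0, and Col-0 replicate 1 was the lowest of all. The rise was 2.27-fold (log2 fold change 1.18, SE 0.22, adjusted p = 0.00193), and the estimate was 0.89 without Col-0 replicate 1. In limma on log2(FPKM + 1) and log2(FPKM + 0.1) its adjusted p was 0.0576 and 0.0687. WRKY33, the main activator of camalexin synthesis and a substrate of MPK3 and MPK6, had 32, 28.7 and 27.4 CPM in gbpl3 and 17.6, 16.8 and 19.5 CPM in Col-0. The spread within each genotype was small beside the gap, and the rise was 1.64-fold (log2 fold change 0.71, SE 0.13, adjusted p = 0.00181). The call of WRKY33 held without any 1 library, as did those of WRKY31 and WRKY48. WRKY33 shares 26 exonic bases with AT2G38480 and 23 with AT2G08965, both on the opposite strand, with 618 and 192 counts over all libraries beside 1601 of WRKY33. Their log2 fold changes were 0.11 and 0.22, and neither was called.

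Both lower members belong to group III. WRKY53 (chr4:12392370-12393982, minus strand), which promotes leaf senescence, had 16.4, 19.1 and 16.9 CPM in gbpl3 and 30.96, 23.7 and 23.5 CPM in Col-0. It fell 1.49-fold (log2 fold change -0.58, SE 0.14, adjusted p = 0.0154), with every gbpl3 library below every Col-0 library. The call ended without gbpl3 replicate 1 (adjusted p = 0.0767), gbpl3 replicate 3 (0.0799) or Col-0 replicate 1 (0.09), and in both limma fits (0.0531 and 0.0544). WRKY53 overlaps AT4G23800 on the opposite strand, and 311 of its 1514 exonic bases are shared. AT4G23800 had 6402 counts over all libraries against 1476 of WRKY53 and was itself lower in gbpl3 (log2 fold change -0.52, adjusted p = 0.0106). The strand setting of the counting is not given in the sources used here, and the part of AT4G23800 reads in the WRKY53 counts was not tested.

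WRKY54 (AT2G40750, chr2:17000419-17002528, minus strand), which together with WRKY70 restrains senescence and salicylic acid accumulation, was a gene of low level. It had 2.37, 1.47 and 1.86 CPM in gbpl3 and 4.80, 3.20 and 5.21 CPM in Col-0, without overlap. It fell 2.32-fold (log2 fold change -1.21, SE 0.35, adjusted p = 0.0338). Of the fits that leave out 1 library, the call held without Col-0 replicate 2 (adjusted p = 0.0146). It ended without gbpl3 replicate 1 (adjusted p = 0.0551), gbpl3 replicate 2 (0.107), gbpl3 replicate 3 (0.109), Col-0 replicate 1 (0.106) or Col-0 replicate 3 (0.141), and in both limma fits (0.0516 and 0.0532). With the replicate block its adjusted p was 0.0547.

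For each called member the closest relative by protein identity was examined. In 2 cases the relative was also called higher: WRKY23 is the closest to WRKY48 (34.3% identity) and WRKY28 the closest to WRKY23 (36.5%). The relatives of WRKY54, WRKY31, WRKY53 and WRKY33 were not called. WRKY54 and WRKY70 (AT3G56400) encode proteins with 45.1% identical residues over the longer one, and WRKY70 had 6.16, 8.66 and 6.14 CPM in gbpl3 and 4.01, 6.32 and 4.80 CPM in Col-0. Its log2 fold change was 0.47 (SE 0.26, adjusted p = 0.283), of opposite sign to that of WRKY54. The log2 ratio of WRKY54 to WRKY70 was -1.38, -2.56 and -1.72 in gbpl3 and 0.26, -0.98 and 0.12 in Col-0, without overlap. Its exact two-sided permutation p was 0.1, the smallest that 3 against 3 libraries allow, so no such ratio can pass the threshold. The same p was found for WRKY53 over WRKY41 (AT4G11070) and for WRKY33 over WRKY4 (AT1G13960), the 3 of 6 ratios tested whose genotypes did not overlap. All 6 numerators are called members whose own libraries did not overlap, so this choice favours separated ratios. Their separation was not read as a difference between relatives. WRKY31 and WRKY42 (AT4G04450) encode proteins with 72.9% identity, and WRKY42 had 3.60, 3.71 and 3.72 CPM in gbpl3 and 3.58, 5.18 and 1.74 CPM in Col-0. The Col-0 libraries of WRKY42 lay on both sides of the gbpl3 ones (log2 fold change 0.06, SE 0.35), and the difference in response between WRKY31 and WRKY42 gave an exact permutation p of 0.4. WRKY41 had a log2 fold change of -0.22 (SE 0.28, adjusted p = 0.701), and 491 of its 1178 exonic bases overlap AT4G11080, which was called lower (log2 fold change -0.56, adjusted p = 0.0231). The nearest relative of WRKY28, WRKY8 (AT5G46350), had 30 counts in all and was not tested. Across the family, 17 pairs were each other's closest relative at 29.4% to 77.3% identity. Both genes were tested in 14 pairs, with estimates of the same sign in 7 and a called gene in 3, and in no pair were both called.

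**Figure D2:**
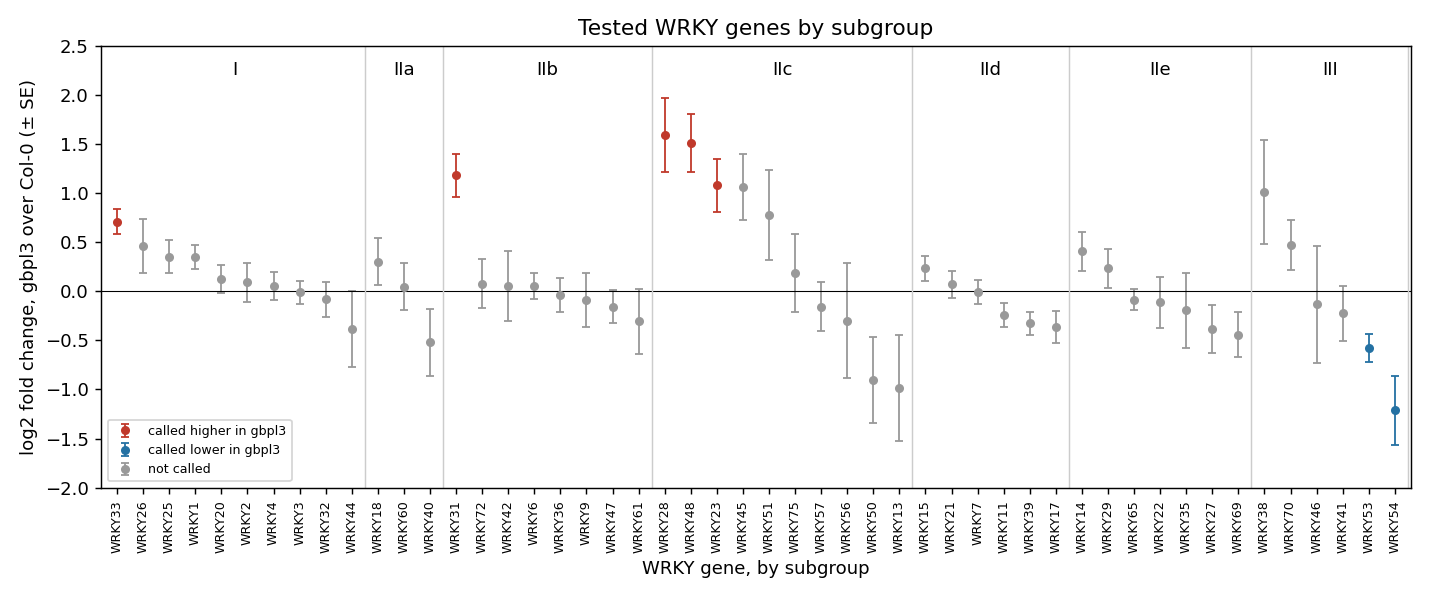
Log2 fold change, gbpl3 over Col-0, with SE for the 50 tested WRKY genes, ordered within subgroups I to III. Called genes are coloured: 3 higher ones stand in subgroup IIc, 1 each in I and IIb, and both lower ones in III.

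By subgroup, IIc held the widest range. It had 14 members, of which 10 were tested, 3 were higher and none lower, with log2 fold changes of -0.98 to 1.59. The share higher was 30%, against 6.06% higher and 4.69% lower among all tested genes. All gbpl3 libraries stood above all Col-0 libraries in 4 of the 10 and below them in 2, against 14.5% and 13.6% of all tested genes. Beside WRKY28, WRKY48 and WRKY23, the subgroup includes WRKY45 (AT3G01970) and WRKY75 (AT5G13080), regulators of phosphate uptake and senescence. WRKY45 had 5.30, 6.19 and 4.09 CPM in gbpl3 and 1.57, 3.61 and 2.249 CPM in Col-0, without overlap, but missed the threshold (log2 fold change 1.06, SE 0.34, adjusted p = 0.0524). WRKY75 had a log2 fold change of 0.19 (SE 0.40). WRKY50 and WRKY51, which with salicylic acid repress jasmonate responses, had estimates of -0.91 (SE 0.44) and 0.78 (SE 0.46), and neither was called. For WRKY50 all gbpl3 libraries stood below all Col-0 libraries, and for WRKY51 the libraries overlapped. WRKY13 (AT4G39410), a stem development gene, had the lowest estimate of the subgroup, -0.98 (SE 0.54), with all gbpl3 libraries below all Col-0 libraries. WRKY56 (AT1G64000) and WRKY57 (AT1G69310), a drought tolerance gene, had estimates of -0.30 (SE 0.59) and -0.16 (SE 0.25).

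In group I, 10 of 11 members were tested and WRKY33 alone was called, 10% beside 10.7% of all tested genes called in either direction. The other members of its heat and defence branch, WRKY25 (AT2G30250) and WRKY26 (AT5G07100), had log2 fold changes of 0.35 (SE 0.17, adjusted p = 0.199) and 0.46 (SE 0.28, adjusted p = 0.341). For WRKY25 all gbpl3 libraries, 15.4, 16.3 and 13.3 CPM, were above the Col-0 libraries, 11.2, 13.2 and 10.8 CPM. WRKY1 (AT2G04880) likewise had 33.1, 33.9 and 28.7 CPM in gbpl3 and 25.1, 23.9 and 26.1 CPM in Col-0 (log2 fold change 0.35, SE 0.12, adjusted p = 0.075). WRKY44 (AT2G37260), also called TTG2 and needed for trichomes and seed coat, had a log2 fold change of -0.38 (SE 0.39). The remaining tested members of the group, WRKY2 (AT5G56270), WRKY3, WRKY4, WRKY20 (AT4G26640) and WRKY32 (AT4G30935), had estimates between -0.08 and 0.12. Subgroup IIa, the pathogen-induced repressors WRKY18 (AT4G31800), WRKY40 (AT1G80840) and WRKY60 (AT2G25000), had estimates of 0.30, -0.52 and 0.05 and no call. In IIb, 1 of 8 tested members was called, WRKY31, 12.5% beside the same 10.7%, and the other 7 lay between -0.31 and 0.08.

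Subgroup IId, whose proteins bind calmodulin, had no call among 6 tested members. WRKY11 (AT4G31550) and WRKY17 (AT2G24570), partly redundant restraints on basal resistance, and WRKY39 (AT3G04670) had all gbpl3 libraries below all Col-0 libraries, and WRKY15 (AT2G23320) had them all above, 4 of 6 members without overlap, against 14.5% of all tested genes above and 13.6% below. WRKY15 had 27.4, 23.8 and 24.6 CPM in gbpl3 and 22.8, 20.04 and 21.6 CPM in Col-0 (log2 fold change 0.23, SE 0.13, adjusted p = 0.289). WRKY39 had 26.4, 28.9 and 32.1 CPM in gbpl3 and 35.1, 37.0 and 37.3 CPM in Col-0 (log2 fold change -0.32, SE 0.12, adjusted p = 0.0895). WRKY17 had a log2 fold change of -0.36 (SE 0.16, adjusted p = 0.176) and WRKY11 of -0.24 (SE 0.12, adjusted p = 0.248). None of the 7 members of IIe was called. WRKY22 (AT4G01250) and WRKY29 (AT4G23550), which act downstream of the flagellin receptor, had estimates of -0.11 (SE 0.26) and 0.23 (SE 0.20). The lowest and highest of that subgroup were WRKY69 (AT3G58710) at -0.44 (SE 0.23) and WRKY14 (AT1G30650) at 0.41 (SE 0.20), each with overlapping libraries. Of the 1250 exonic bases of WRKY69, 255 overlap AT3G58720 on the opposite strand, with 575 counts beside 540. WRKY27 (AT5G52830) had 5.11, 4.33 and 5.02 CPM in gbpl3 and 7.41, 5.42 and 6.03 CPM in Col-0, all below without overlap (log2 fold change -0.385, SE 0.25, adjusted p = 0.378). In group III, 6 of 9 members were tested, 2 were lower and none higher. The share lower was 33.3%, against 4.69% of all tested genes. WRKY38 (AT5G22570), a negative regulator of basal defence, had an estimate of 1.01 with an SE of 0.53 (adjusted p = 0.265), and WRKY46 (AT2G46400) of -0.13 with an SE of 0.60.

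**Figure D3:**
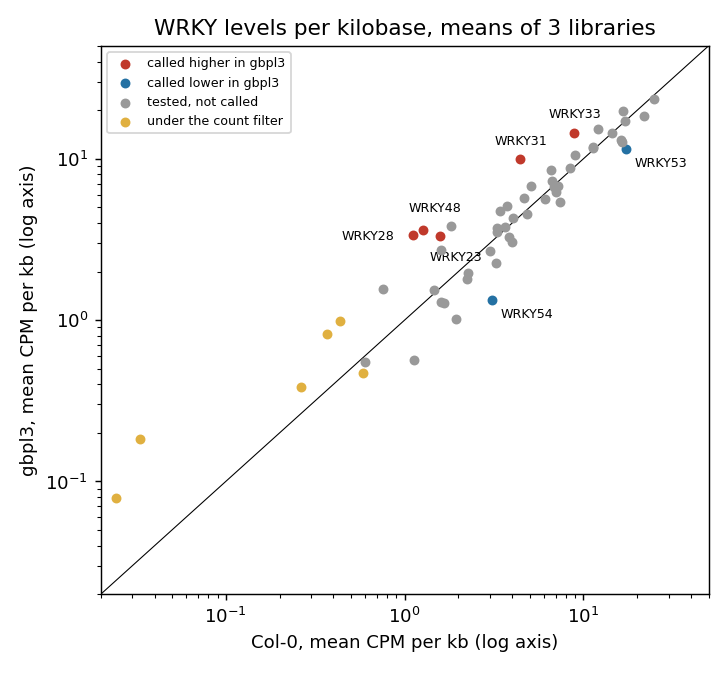
Mean CPM per kilobase of the WRKY genes in gbpl3 (vertical, log axis) against Col-0 (horizontal, log axis), with the line of equal level. Genes with a mean of 0 in a genotype are not drawn, and the called genes lie between 1.12 and 17.2 CPM per kb in Col-0.

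To compare levels between genes, CPM were divided by the length of the exon union in kilobases. On that scale the tested members spanned 41.8-fold, and the 8 highest held 40.5% of the family's summed level. WRKY65 (AT1G29280) was the highest, with 23.4 ± 0.427 CPM per kb in gbpl3 and 24.8 ± 1.71 in Col-0. WRKY11 followed with 18.5 ± 2.76 and 21.8 ± 0.585 CPM per kb in gbpl3 and Col-0. WRKY15, a growth and osmotic stress regulator, had 19.7 ± 1.47 and 16.7 ± 1.06 CPM per kb. WRKY3 (AT2G03340), with WRKY4 a factor of resistance to necrotrophic fungi, had 17.03 ± 1.64 and 17.1 ± 1.40 CPM per kb in gbpl3 and Col-0. WRKY15 stood above WRKY11 in gbpl3 and below it in Col-0, and in gbpl3 these neighbours differed by less than 1 SD of WRKY11. WRKY39, WRKY17, WRKY7 (AT4G24240) and WRKY53 completed the first 8, with means over all libraries of 14.4 to 14.7 CPM per kb, closer together than their SDs. Of these 8 genes WRKY53 alone was called, and the log2 fold changes of WRKY65, WRKY15, WRKY3 and WRKY7 were -0.08 (SE 0.11), 0.23 (SE 0.13), -0.01 (SE 0.12) and -0.01 (SE 0.12). WRKY33 ranked the 10th with 14.5 ± 1.16 CPM per kb in gbpl3 and 8.86 ± 0.698 in Col-0.

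The error of the log2 fold change was smaller in the more abundant members. In the class of 20 CPM per kb or more both members were tested and none was called, with a median SE of 0.12 on the log2 scale. In the class of 5 to 20 all 22 members were tested, 2 were higher and 1 lower, and the median SE was 0.15. In the class of 1 to 5 all 24 members were tested, 3 were higher and 1 lower, and the median SE was 0.34. Under 1 CPM per kb 2 of 11 members were tested, with SEs around a median of 0.57, and neither was called. The class of 5 to 20 had 9.09% higher and 4.5% lower, and that of 1 to 5 had 12.5% and 4.17%. Among all tested genes the shares were 6.06% and 4.69%. A change of at least 2-fold was estimated for 7 tested members and 5 of these were called, while 39 members had estimates under 1.5-fold. The median coefficient of variation between replicates was 13.9% in gbpl3 and 18.8% in Col-0 for the tested members, and 12.02% and 13.4% for all tested genes. Summed over the 59 members, expression was 659, 637 and 629 CPM in gbpl3 and 606, 611 and 628 CPM in Col-0.

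The other 9 members had 0 to 59 counts over all libraries and were not tested. WRKY59 had no count, which allows at most 0.232 to 0.307 CPM per library at 3 counts. WRKY12 (AT2G44745), a gene of stem pith and flowering, had 7 counts, WRKY55 (AT2G40740) had 4, WRKY62 (AT5G01900), a partner of WRKY38 in basal defence, had 5 and WRKY58 (AT3G01080) had 11. All counts of WRKY62 and WRKY58 came from Col-0 libraries, with 0, 0 and 0 counts in gbpl3 for each. In Col-0 replicates 1 to 3 WRKY62 had 3, 0 and 2 counts and WRKY58 had 1, 9 and 1, so most of those of WRKY58 came from 1 library. The other way round, 6 of the 7 counts of WRKY12 and 3 of the 4 of WRKY55 came from gbpl3. WRKY30 (AT5G24110), WRKY43 (AT2G46130) and WRKY74 (AT5G28650) had 45, 31 and 59 counts. For WRKY74, the closest relative of WRKY39, the levels were 0.758, 1.39 and 1.40 CPM in gbpl3 and 0.698, 0.493 and 0.409 CPM in Col-0, without overlap. The filter kept these 9 members out of the main fit, so a difference in them was not tested there. Without the filter the only call gained was that of WRKY45, which is not among them.

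Genes that act with WRKY proteins were described from 2 further lists. Of 10 MAP kinase cascade genes 9 were tested and 1 was higher, 11.1% beside 6.06% of all tested genes. It was MPK3, with 62.5 ± 1.30 CPM in gbpl3 and 45.1 ± 2.12 CPM in Col-0 (log2 fold change 0.47, SE 0.10, adjusted p = 0.0055). MPK6, which acts beside it, had 48.7 ± 0.701 CPM in gbpl3 and 48.7 ± 6.40 CPM in Col-0. The list's median was 0.10, and no member was lower. Of 11 VQ genes 8 were tested and SIB2 alone, an activator of WRKY33, was called higher, 12.5% beside 6.06% of all tested genes. It had 11.9 ± 2.30 CPM in gbpl3 and 6.48 ± 0.83 CPM in Col-0 (log2 fold change 0.87, SE 0.21, adjusted p = 0.0107). Without gbpl3 replicate 3 SIB2 was not called (adjusted p = 0.0917). All 835 exonic bases of SIB2 overlap AT2G41178 on the opposite strand, with 597 counts over all libraries beside 620 of SIB2. The part of those reads in the SIB2 counts was not tested. MKS1, which links MPK4 to WRKY33, had a log2 fold change of -0.13 (SE 0.15), and the list's median was 0.13.

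**Figure D4:**
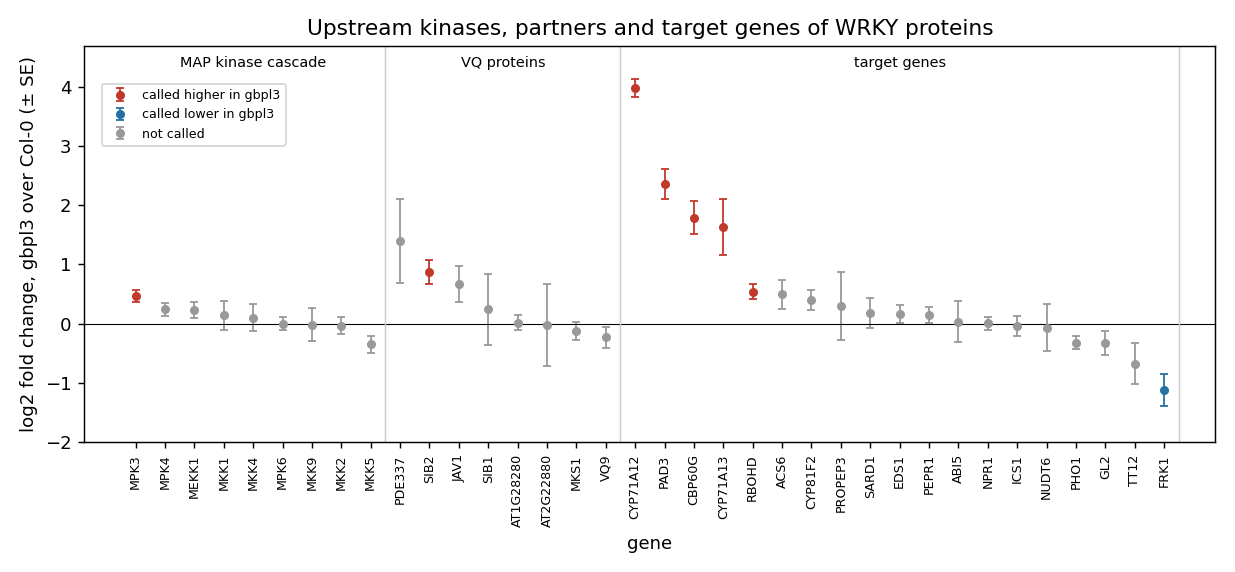
Log2 fold change, gbpl3 over Col-0, with SE for the tested genes of the MAP kinase cascade, the VQ family and the list of WRKY targets. The called genes are MPK3, SIB2, CYP71A12, PAD3, CBP60G, CYP71A13 and RBOHD (higher) and FRK1 (lower).

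Of 24 genes described in earlier work as bound or controlled by WRKY proteins 19 were tested, 5 were higher and 1 lower, and the median log2 fold change was 0.16. The list was drawn up with earlier results of these data known, and its shares, 26.3% higher and 5.26% lower, are given as a description beside the 6.06% and 4.69% of all tested genes. The higher genes included CYP71A12, CYP71A13 and PAD3 of the indole and camalexin pathway that WRKY33 activates, with log2 fold changes of 3.99 (SE 0.15, adjusted p = 1.32e-11), 1.63 (SE 0.48, adjusted p = 0.0346) and 2.36 (SE 0.25, adjusted p = 6.88e-06). CYP71A12 and CYP71A13 are closely related genes, and whether reads of one were counted for the other was not tested. CYP71A13 lost its call when any library other than Col-0 replicate 3 was left out (adjusted p = 0.0501 to 0.179). The call also ended with the replicate block (0.0798) and in both limma fits (0.0969 and 0.111). CYP71A13 also shares 330 exonic bases with AT2G30766 on the opposite strand, which had 1192 counts over all libraries beside 134 of CYP71A13, and the part of those reads in its counts was not tested. CBP60G, a regulator of salicylic acid synthesis, had 10.6 ± 2.53 CPM in gbpl3 and 3.08 ± 1.23 CPM in Col-0 (log2 fold change 1.79, SE 0.28, adjusted p = 0.000473, and 0.0515 in limma on log2(FPKM + 0.1)). RBOHD, the NADPH oxidase of the immune burst, had 39.9 ± 0.396 CPM in gbpl3 and 27.4 ± 3.59 CPM in Col-0 (log2 fold change 0.54, SE 0.12, adjusted p = 0.00755, and 0.0749 and 0.0763 in the limma fits). The lower gene was FRK1, a target of WRKY6, WRKY22 and WRKY29, with 5.50 ± 1.70 CPM in gbpl3 and 11.99 ± 4.58 CPM in Col-0 (log2 fold change -1.12, SE 0.28, adjusted p = 0.0131). Its call ended without gbpl3 replicate 3 (adjusted p = 0.0904) or Col-0 replicate 1 (0.0818) and in both limma fits (0.0931 and 0.095). FRK1 shares 69 exonic bases with AT2G19180 on the opposite strand, which had 1149 counts beside 597. ICS1, bound by WRKY28, had a log2 fold change of -0.04 (SE 0.16), and PHO1, repressed by WRKY6 and WRKY42, of -0.32 (SE 0.11, adjusted p = 0.0744). PR1, the usual marker of salicylic acid, had no count in any library.

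Total counts were 10836165 to 12911891 in gbpl3 and 9530643 to 12104120 in Col-0, and GBPL3 (AT5G46070) had 14.8, 18.8 and 15.6 CPM in gbpl3 and 68.9, 67.9 and 66.0 CPM in Col-0. Shoot and root markers were detected in the libraries, which are labelled whole seedlings. The summed level of 5 mesophyll markers was 43390 to 50510 CPM in gbpl3 and 36660 to 42240 CPM in Col-0, with 2 called higher. For 6 root markers it was 111 to 131 CPM in gbpl3 and 138 to 151 CPM in Col-0, with 1 called lower. For 4 trichome and seed coat markers it was 39.6 to 41.6 CPM in gbpl3 and 38.99 to 47.97 CPM in Col-0, with none called. TTG1 made up 74.3% of that last sum, with a log2 fold change of -0.008 (SE 0.13). GL1 and GL2 had estimates of -0.34 (SE 0.52) and -0.33 (SE 0.20), and TRY was not tested. Of 5 seed storage and embryo markers 3 were tested and called higher, and their sum ran from 14.6 to 207 CPM in gbpl3 and 0.436 to 1.23 CPM in Col-0. Of 5 senescence markers 3 were higher, with sums of 70.1 to 89.2 CPM in gbpl3 and 20.1 to 33.8 CPM in Col-0, and SAG12 was at 0 in all libraries. The part of these tissues in the levels of WRKY genes was not tested. Among all tested genes 6.06% were called higher and 4.69% lower.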

How the data were processed

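The 6 libraries of messenger RNA were strand-specific, per the labels' protocols. The authors deposited raw counts per gene, whole numbers with different totals, and a second table of FPKM. TAIR10, HTSeq 0.6.1p1 and HISAT2 2.0.4 are named in the submitters' processing notes. How strand, multiply matching reads and read filters were set is not given in the sources used here. The gene length behind the deposited FPKM matched the exon union within 1% in 36 of 58 members and was up to 3.06 times longer (WRKY26), so levels between genes were computed from counts.

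Differential expression was fitted to counts in edgeR 4.0.16 under R 4.3.3 by its quasi-likelihood method after filterByExpr and TMM scaling, with genotype as the only term and Benjamini-Hochberg adjustment over all genes tested. The SE is the log2 fold change divided by the square root of F. Coordinates, exon lengths, translated proteins and upstream sequences come from RefSeq's TAIR10.1 assembly, which held 99.1% of the gene identifiers. Percent identity is from global alignment of the longest protein of each gene. No 2 libraries were duplicates: for pairs of the same genotype, chi-square over its degrees of freedom was 4.97 to 14.4, and sampling noise alone gives about 1. Pairs of different genotype gave 9.98 to 34.6, so Col-0 replicates 1 and 2, at 14.4, differed more than some of those pairs. Floors cover counting error only.

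Members, lists and tests were chosen with earlier results of these data known. Named genes are the called members, the 8 highest per kilobase, members without a count, the closest relative of each called member, and called genes of the lists. Other members were named after their values were seen. The alternatives tried were DESeq2 1.42.0, scaling by RLE or upper quartile, all genes unfiltered, at least 1 CPM in 3 libraries, a replicate block, each library left out, and limma 3.58.1 on log2(FPKM + 1) or log2(FPKM + 0.1) of the deposited FPKM.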

Additional observations from a re-analysis of the deposited data

How the results depend on the processing

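The 5 higher and 2 lower members were the same 7 genes with RLE or upper-quartile scaling, DESeq2, or a filter of 1 CPM in 3 libraries. Without a filter on low counts WRKY45 was added. Leaving out single libraries gave 4 to 6 higher and 0 to 2 lower members. No member was called lower by edgeR without gbpl3 replicate 1, gbpl3 replicate 3 or Col-0 replicate 1, where 4, 5 and 4 had an unadjusted p under 0.05, and none by limma on log2(FPKM + 1) or log2(FPKM + 0.1), where 7 and 8 had one. DESeq2 called 2 lower. With gbpl3 replicate 2 or Col-0 replicate 3 left out, 1 member was lower. The limma fits called 4 and 3 higher. These fits took the deposited FPKM without further scaling and a filter on mean FPKM that left 19481 genes. Their median log2 fold change over all genes was -0.061 and -0.07, against -0.003 in the main fit. The replicate number does not pair the libraries: deviations of same-numbered libraries from their group means correlated at -0.0595, -0.0892 and 0.0404. With the replicate block 5 members were higher and 1 lower, and 916 genes were higher and 618 lower in all, against 1253 and 969. Over all genes, leaving out a library gave 629 to 1443 higher and 320 to 1238 lower, and the limma fits gave 424 and 384 higher and 390 and 368 lower. The causes were not tested. For members of low level the counts limit what can be seen: SEs were near 0.57 on the log2 scale under 1 CPM per kb.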
